A study of Mus musculus with 9 samples.

Results

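Protein folding, stress response and secretion in the endoplasmic reticulum (ER) were examined through 38 genes in sorted lung fibroblasts of aged mice. The genes were listed by name for their place in this pathway, with earlier results of these data known, and each of the 38 was found once among the 43346 genes of the deposited table. All 38 passed the filter on low counts that left 16877 genes for testing. The study asked why lung fibrosis persists after bleomycin, a drug that injures the lung, in old mice. Col1a1-GFP transgenic male mice on an FVB background, 18 months old by the protocol and 72 weeks old by the sample labels, received 1 intratracheal dose of saline (aged sham, 4 libraries) or bleomycin (aged bleo, 5 libraries). Lungs were taken on day 30, and cells that were GFP+, CD45-, CD31- and EpCAM- were sorted, with gates that select cells with an active collagen I promoter and select against hematopoietic, endothelial and epithelial cells. Poly-A RNA of each sort was sequenced in bulk, and in such data a smaller number of cells that express a gene and less RNA of it per cell cannot be told apart.

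Proteins that are secreted or sit in membranes enter the ER through the translocon, are folded by chaperones and disulfide isomerases, and leave in COPII-coated vesicles. Resident chaperones that escape are brought back by KDEL receptors, and proteins that fail to fold are sent to the cytosol for degradation (ERAD). When unfolded proteins build up, the sensors IRE1, PERK and ATF6 start the unfolded protein response. IRE1 splices the Xbp1 mRNA, ATF6 is released as a transcription factor, and PERK slows translation while favouring that of ATF4. Collagen-producing fibroblasts depend on this pathway, because procollagen is large and needs dedicated chaperones and export factors.

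The DNA elements read by these factors lie in the promoters of several of the 38 genes. They are shown here so that the values below can be read by element. RefSeq promoters (GRCm38.p6, from 250 bases before to 50 bases after the annotated start) were matched for 31 of the 38 genes. The ER stress response element (ERSE, searched as CCAAT and CCACG with 9 bases between them) is bound by ATF6 together with NF-Y, and the unfolded protein response element (UPRE, TGACGTGG) by XBP1 and ATF6. ERSE-II (ATTGG and CCACG with 1 base between them) is a compact form, and the C/EBP-ATF response element (CARE, TGATGNAAN) is a site of ATF4 dimers. Each element is in capitals in the lines below, in the direction of the gene, and can lie on either strand.
Hspa5 ERSE, chr2:34772020-34772048, + strand: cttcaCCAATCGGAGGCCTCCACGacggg
Calr ERSE, chr8:84847070-84847098, - strand: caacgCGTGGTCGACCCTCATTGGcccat
Creld2 ERSE, chr15:88819515-88819543, + strand: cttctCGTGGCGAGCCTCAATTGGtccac
Syvn1 ERSE, chr19:6046527-6046555, + strand: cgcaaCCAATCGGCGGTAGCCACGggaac
Herpud1 ERSE-II, chr8:94386368-94386396, + strand: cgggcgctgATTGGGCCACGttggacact
Herpud1 CARE, chr8:94386306-94386334, + strand: accacggcggGTTGCATCAgcccgcaccc
Trib3 CARE, chr2:152344029-152344057, - strand: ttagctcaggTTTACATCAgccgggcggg
Kdelr3 UPRE, chr15:79516367-79516396, + strand: tggccgccccgCCACGTCAccgcgcggcca
Sec23a UPRE, chr12:59011993-59012022, - strand: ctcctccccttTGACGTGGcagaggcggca
Sec24d UPRE, chr3:123267459-123267488, + strand: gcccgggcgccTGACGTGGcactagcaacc

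Between aged sham and aged bleo, 4 of the 38 genes rose and 2 fell, where 23.8% of all tested genes were called in either direction. Those that rose were Fkbp10, Creb3l1, Kdelr3 and Sec61b, and those that fell were Trib3 and Herpud1. A gene was called when its FDR, the Benjamini-Hochberg adjusted p-value of edgeR's quasi-likelihood test over all 16877 genes, was under 0.10 and its fold change was over 1.5. The genes called higher were 10.5% of the set against 12.3% of all tested genes, and the genes called lower were 5.26% against 11.5%. At an FDR under 0.10 with no limit on the fold change, 12 members (31.6%) were higher and 8 (21.1%) lower, against 23.4% and 21.4% of all tested genes (44.8% in either direction). The 5 aged bleo libraries lay above all 4 aged sham libraries for 9 members and below them for 4, where each of these orders held for 16.1% of all tested genes. The fitted log2 fold changes of the set, positive where aged bleo was higher, ran from -1.03 to 1.27 with a median of 0.11, and the median of all tested genes was 0.01. For 20 of the 38 members the 95% confidence interval of the fold change lay within 1.5-fold in both directions, as it did for 44.3% of all tested genes. The number of members called lower depended on single libraries. It was 4 without aged sham 1, 1 without aged sham 2, 5 without aged bleo 2, 1 without aged bleo 4 and 1 without aged bleo 5, where 10.6%, 10.2%, 13.5%, 11.7% and 9.7% of the genes tested were called lower.

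**Figure D1:**
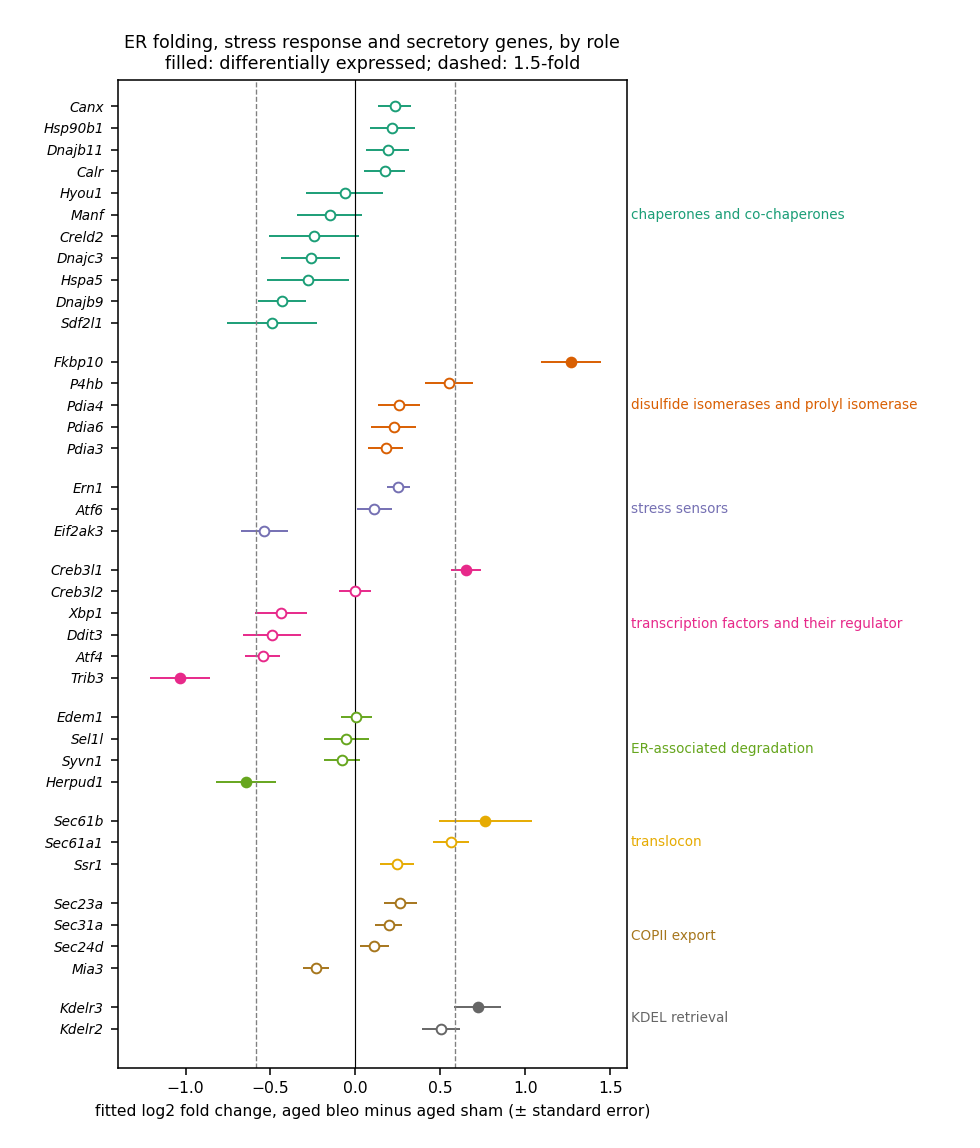
Fitted log2 fold change of aged bleo (5 libraries) against aged sham (4 libraries) for the 38 genes, grouped by role. Points are edgeR estimates, bars are standard errors, filled points passed both thresholds and the dashed lines mark a 1.5-fold change; the translocon and KDEL receptor genes all lie to the right of 0, and the 11 chaperones lie on both sides of it.

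Of the 11 chaperones and co-chaperones, none passed both thresholds in edgeR, DESeq2 or limma-trend; 2 had an unadjusted edgeR p under 0.05, and these, Canx (higher) and Dnajb9 (lower), passed the FDR alone. Hspa5 encodes BiP, the main Hsp70 chaperone of the ER and the classical readout of ER stress. Hspa5 (ENSMUSG00000026864, chr2:34771970-34777547) was at 1078, 1468, 1759 and 1423 CPM in aged sham 1 to 4 and at 860, 1822, 1294, 932 and 995 CPM in aged bleo 1 to 5, where CPM is the read count scaled to the TMM-normalized library size. The groups overlapped, with the highest value of all in aged bleo 2 and the lowest in aged bleo 1. The log2 fold change of Hspa5 was -0.28 with a 95% interval from -0.82 to 0.26 (SE 0.24, FDR 0.393), so a decrease of more than 1.5-fold lies inside this interval and an increase of 1.5-fold does not. Hsp90b1, which encodes the Hsp90 of the ER, stood at 1091 ± 177 CPM in aged sham against 1269 ± 122 CPM in aged bleo (SD, n = 4 and 5), with an interval from -0.08 to 0.52, and 15.7% of its exonic bases are shared with noncoding entries and a pseudogene. The lectin chaperones, which hold glycoproteins during folding, had intervals from -0.10 to 0.45 for Calr and from 0.01 to 0.45 for Canx, the latter with an FDR of 0.0979. Dnajb9, an Hsp40 co-chaperone that keeps IRE1 in check, was at 97.4 ± 12.3 CPM in aged sham against 72.3 ± 13.4 CPM in aged bleo, a log2 fold change of -0.43 (FDR 0.0414) short of the fold limit. Sdf2l1, a partner of BiP, had the lowest fitted value of the 11 at -0.49 (FDR 0.175). Its libraries overlapped, and it was called lower without aged sham 1 (-0.67) or without aged bleo 2 (-0.69). The remaining co-chaperones and folding helpers Hyou1, Manf, Creld2, Dnajb11 and Dnajc3 had fitted values from -0.26 to 0.19 and FDR values from 0.264 to 0.851.

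The chaperones shared an order of the libraries within each group. All 11 were lowest in aged sham 1 among the sham libraries, and 10 of the 11 were highest in aged sham 3. In aged bleo, 10 of the 11 were highest in aged bleo 2 and 8 were lowest in aged bleo 1. Over all tested genes, 29.4% were lowest in aged sham 1, 17.5% highest in aged sham 3, 27.6% highest in aged bleo 2 and 11.8% lowest in aged bleo 1. Hyou1, an Hsp70-like chaperone, shows this order, with 156, 222, 284 and 214 CPM in aged sham 1 to 4 and 147, 295, 246, 181 and 179 CPM in aged bleo 1 to 5. A plasma cell transcript was also highest in aged sham 3 and aged bleo 2. Igj, which encodes the immunoglobulin joining chain, was at 24.2, 49.1, 120 and 89.1 CPM in aged sham 1 to 4 and at 13.6, 99.4, 20.9, 3.23 and 11.3 CPM in aged bleo 1 to 5. The summed B and plasma cell markers lay between 39.0 and 129.8 CPM in the sham libraries and between 7.31 and 106.7 CPM in the bleo libraries, and 6 of the 8 tested genes of this list were called lower, 1 of them (Derl3) an ERAD gene as well. Smooth muscle and pericyte markers summed to 3177, 4233, 5174 and 2544 CPM in aged sham 1 to 4. In aged bleo 1 to 5 they summed to 2639, 2832, 2448, 1765 and 2455 CPM. These sums were also highest in aged sham 3 and aged bleo 2 but lowest in aged sham 4 and aged bleo 4. Among the bleo libraries, only Myh11 and Cnn1 of this list were highest in aged bleo 2, and Des was lowest there. The epithelial marker Sftpc was at 3.18, 3.08, 57.9 and 5.47 CPM in aged sham 1 to 4. In aged bleo 1 to 5 it was at 7.65, 29.5, 28.8, 18.0 and 10.0 CPM. Sftpb and Lamp3 were also highest in aged sham 3 and aged bleo 2. Epcam, Cdh1, Scgb1a1, Krt8 and Krt18 of the epithelial list did not share both peaks. The part of these cells in the chaperone values was not tested. Without aged sham 3 and aged bleo 2, Hspa5 had a log2 fold change of -0.38 (FDR 0.149), and P4hb, Eif2ak3, Ddit3 and Sec61a1 were called in addition to the 6 genes called with all libraries, making 6 members higher and 4 lower where 12.7% and 12.9% of the genes tested were.

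**Figure D2:**
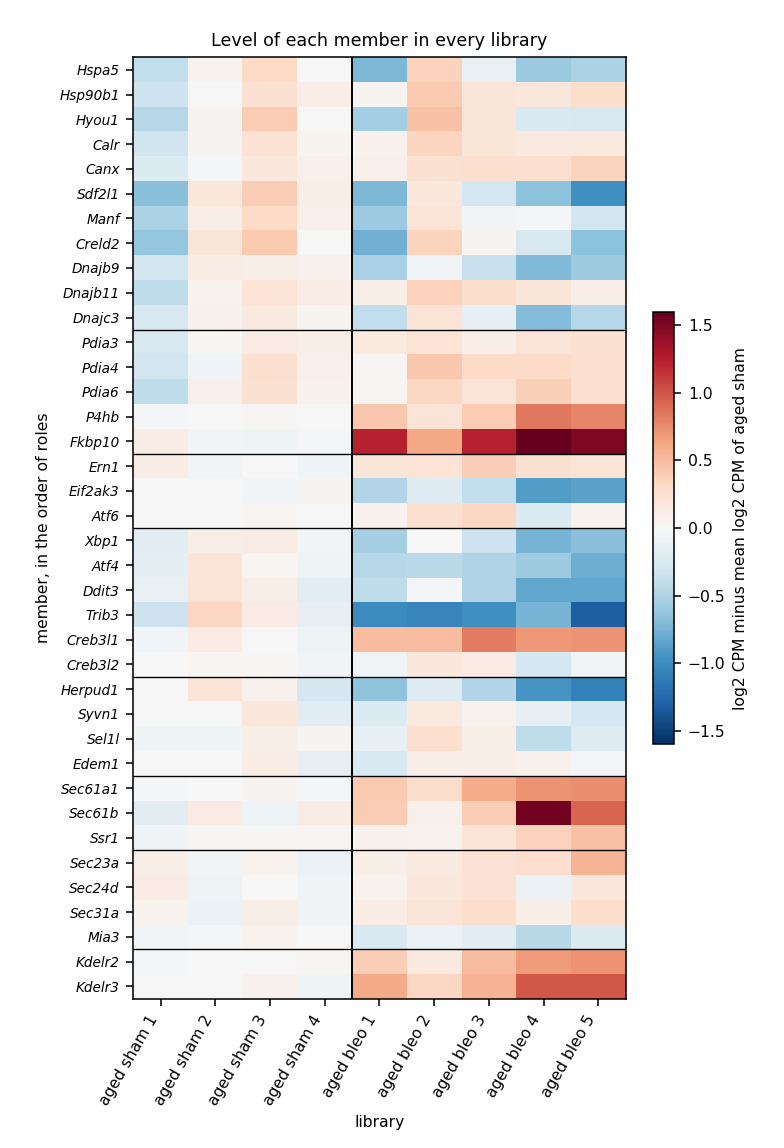
Log2 CPM of each of the 38 genes in each of the 9 libraries, minus the mean of the 4 aged sham libraries, as a colour scale with genes in rows grouped by role. Within the chaperones, aged sham 1 is the lowest and aged sham 3 mostly the highest sham library, and aged bleo 2 is mostly the highest bleo library.

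Among the 5 isomerases, Fkbp10 rose, and the 4 protein disulfide isomerases did not pass both thresholds. Fkbp10 encodes FKBP65, a prolyl isomerase and collagen chaperone of the ER whose loss causes brittle bones. Fkbp10 (ENSMUSG00000001555, chr11:100415697-100424824) was at 110, 98.8, 96.9 and 100.1 CPM in aged sham 1 to 4 and at 238, 156, 239, 308 and 285 CPM in aged bleo 1 to 5. Every aged bleo library lay above every aged sham library, with aged bleo 2 nearest to them. The log2 fold change of Fkbp10 was 1.27 (2.41-fold, SE 0.18, FDR 0.00106), the largest of the set, and it was called under all 21 alternatives tried, between 1.15 and 1.40. Per length, the mean level of Fkbp10 was 14.5 FPKM in aged sham and 36.1 FPKM in aged bleo, which moved it from rank 21 to rank 11 of the 38 genes. Of its exonic bases, 6.58% are shared with Nt5c3b on the other strand, and reads from this stretch cannot be assigned to either gene, since the library kit (TruSeq RNA v2) does not mark strand.

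P4hb encodes protein disulfide isomerase, which is also the beta subunit of the prolyl 4-hydroxylase that modifies collagen. P4hb was at 667, 678, 684 and 682 CPM in aged sham 1 to 4 and at 913, 779, 894, 1214 and 1169 CPM in aged bleo 1 to 5. The groups did not overlap, and the sham libraries lay within an SD of 7.59 CPM while the bleo libraries had an SD of 188 CPM. P4hb had a log2 fold change of 0.55 (SE 0.14, FDR 0.0159), under the fold limit, and it passed without aged bleo 2 (0.63) or without aged bleo 3 (0.59). By mean level per length P4hb had rank 5 of the 38 genes in aged sham (99.3 FPKM) and rank 1 in aged bleo (150.0 FPKM), whereas Hspa5 had rank 1 in aged sham (142 FPKM) and rank 5 in aged bleo (119 FPKM). These are orders of group means, and the bleo libraries of both genes spread widely. Pdia3, Pdia4 and Pdia6, which form and reshuffle disulfide bonds, had fitted values from 0.18 to 0.26 and FDR values from 0.128 to 0.216, and their groups overlapped.

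None of the 3 sensors of the unfolded protein response was called by edgeR, DESeq2 or limma-trend, and 2 had an unadjusted edgeR p under 0.05, Eif2ak3 with lower and Ern1 with higher values in aged bleo. Eif2ak3, which encodes PERK, was at 66.4, 66.2, 64.5 and 68.3 CPM in aged sham 1 to 4 and at 48.1, 57.4, 50.6, 35.8 and 36.7 CPM in aged bleo 1 to 5. All aged bleo libraries lay below all aged sham libraries, and aged bleo 4 and 5 were the lowest. For Eif2ak3 the log2 fold change was -0.54 (SE 0.14, FDR 0.0161), which passed the fold limit without aged bleo 2 (-0.63). Ern1, which encodes IRE1, was at 64.1 ± 3.94 CPM in aged sham against 76.3 ± 4.46 CPM in aged bleo, without overlap, and its log2 fold change of 0.25 (FDR 0.0188) lay within 1.5-fold over its whole interval from 0.10 to 0.40. Atf6 was at 99.5 ± 1.45 and 107 ± 15.3 CPM, with overlap and an FDR of 0.433. These are mRNA levels, and the activity of the sensors, such as the splicing of Xbp1, was not measured by gene counts.

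Of the 6 transcription factors and their regulator, Creb3l1 rose, Trib3 fell, and Atf4, Xbp1 and Ddit3 had lower values that passed the FDR but not the fold limit. Atf4 encodes the factor whose translation PERK favours. Atf4 was at 215, 278, 246 and 227 CPM in aged sham 1 to 4 and at 176, 178, 172, 161 and 140.3 CPM in aged bleo 1 to 5. Each aged bleo library lay below each aged sham library. Atf4 had a log2 fold change of -0.55 (SE 0.10, FDR 0.00431), and it was called lower without aged sham 1 (-0.60).

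Trib3, a pseudokinase induced by ATF4 and CHOP that dampens both, was the least expressed of the 38 genes per length (0.862 FPKM in aged sham and 0.432 FPKM in aged bleo) but was covered by 177 counts per library on average. Trib3 (ENSMUSG00000032715, chr2:152337422-152344032) was at 3.42, 5.39, 4.69 and 3.93 CPM in aged sham 1 to 4 and at 2.12, 2.06, 2.19, 2.57 and 1.72 CPM in aged bleo 1 to 5. The groups did not overlap, and the bleo libraries lay closer together than the sham libraries. Its log2 fold change was -1.03 (SE 0.18, FDR 0.00281), the lowest of the set, and it was called under every alternative except the log2(FPKM + 1) scale, where a value this low changes little (-0.38). Ddit3, which encodes the ATF4 target CHOP, was at 34.6 ± 4.37 CPM in aged sham against 24.6 ± 5.91 CPM in aged bleo, with aged bleo 2 inside the sham range. The log2 fold change of Ddit3 was -0.49 (FDR 0.0481), it passed the fold limit without aged bleo 2 (-0.63), and 10.9% of its exonic bases are shared with other annotated entries, among them Mars on the other strand and a second entry of Ddit3. Xbp1 lay between 223 and 276 CPM in aged sham, against 151 to 252 CPM in aged bleo, a log2 fold change of -0.44 (FDR 0.0507), and the groups overlapped. Immediate early genes, which are induced within minutes and also by tissue dissociation, moved in the same direction. Their summed level was 12801 to 16881 CPM in aged sham and 4708 to 10509 CPM in aged bleo, with 7 of 7 genes called lower, and their part in the values of Atf4, Ddit3, Trib3 and Xbp1 was not tested.

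Creb3l1 and Creb3l2 encode OASIS and BBF2H7, membrane-bound factors cut in the Golgi that are known for driving secretory genes in bone and cartilage, OASIS with the type I collagen genes among its targets. Creb3l1 (ENSMUSG00000027230, chr2:91982328-92024502) was at 74.5, 83.6, 76.2 and 72.6 CPM in aged sham 1 to 4 and at 108, 107, 136, 124 and 127 CPM in aged bleo 1 to 5. The groups did not overlap. Creb3l1 rose with a log2 fold change of 0.65 (1.57-fold, SE 0.09, FDR 9.7e-04), and it was called under every alternative except the stricter limits of FDR under 0.05 and a fold change over 2. Creb3l2 was at 179 ± 4.20 CPM in aged sham against 178 ± 21.6 CPM in aged bleo, and its interval from -0.22 to 0.21 excluded a 1.5-fold change in either direction.

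**Figure D3:**
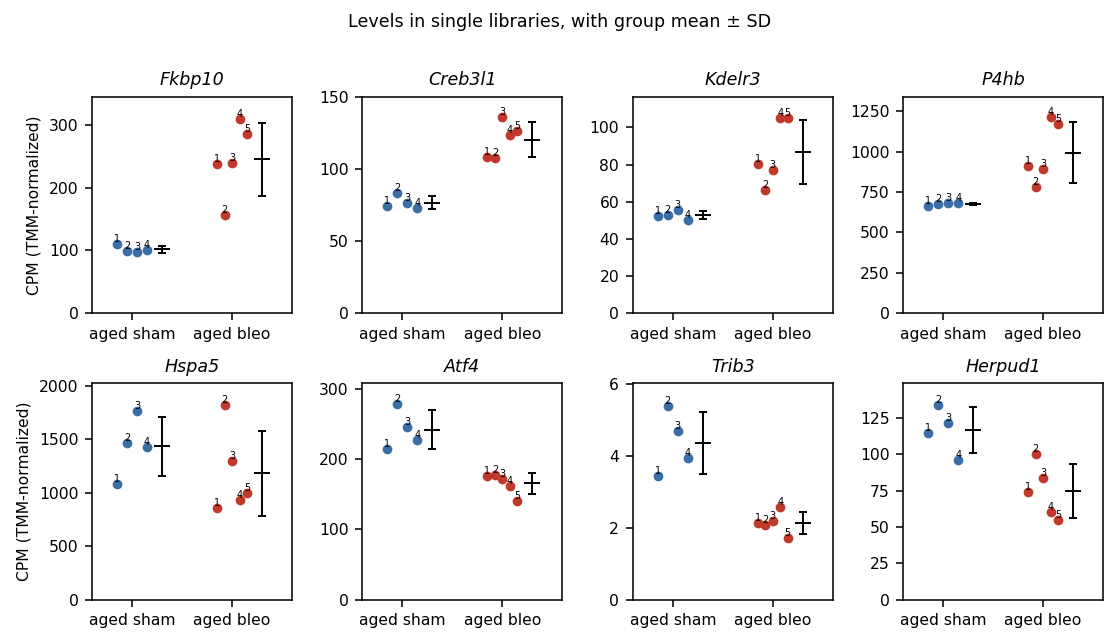
CPM per library of Fkbp10, Creb3l1, Kdelr3, P4hb, Hspa5, Atf4, Trib3 and Herpud1 in aged sham (4 libraries) and aged bleo (5 libraries), with mean ± SD. The groups are apart for Fkbp10, Creb3l1, Kdelr3, P4hb, Atf4 and Trib3 and overlap for Hspa5 and Herpud1.

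Of the 4 ERAD genes, Herpud1 fell and the other 3 had values near 0. Herpud1 encodes a membrane protein that gathers the ubiquitin ligase complex and is strongly induced by ER stress. Herpud1 (ENSMUSG00000031770, chr8:94386438-94395377) was at 115, 134, 121 and 95.8 CPM in aged sham 1 to 4 and at 74.3, 100.4, 83.3, 59.97 and 54.5 CPM in aged bleo 1 to 5. Aged bleo 2 lay above aged sham 4, and the other bleo libraries lay below all sham libraries. Herpud1 fell with a log2 fold change of -0.64 (SE 0.18, FDR 0.0218), and it no longer reached the fold limit without aged sham 2 (-0.57), without aged bleo 4 (-0.58) or without aged bleo 5 (-0.55). Syvn1, the ubiquitin ligase, Sel1l, its adaptor, and Edem1, which hands misfolded glycoproteins to it, had log2 fold changes of -0.08, -0.05 and 0.01 with all 3 intervals within 1.5-fold.

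The 3 translocon genes were all higher at an FDR under 0.10, and 1 of them, Sec61b, passed both thresholds. Sec61a1 encodes the channel itself. Sec61a1 was at 254, 261, 267 and 257 CPM in aged sham 1 to 4 and at 347, 315, 393, 427 and 433 CPM in aged bleo 1 to 5. The groups did not overlap, and aged bleo 2 was the lowest bleo library. Sec61a1 had a log2 fold change of 0.56 (SE 0.11, FDR 0.00464), just under the fold limit, which it passed without aged bleo 1 (0.59) or without aged bleo 2 (0.62). Sec61b (ENSMUSG00000053317, chr4:47474658-47483242), the beta subunit of the channel, was at 24.8, 30.5, 26.5 and 30.2 CPM in aged sham 1 to 4 and at 36.8, 29.4, 36.8, 81.3 and 53.4 CPM in aged bleo 1 to 5. Aged bleo 4 was far the highest library for Sec61b, and aged bleo 2 lay within the sham range. Its log2 fold change was 0.76 (SE 0.27, FDR 0.0556). The call was lost without aged bleo 4 (log2 fold change 0.47) and, through the FDR, without aged sham 1 (0.124), aged sham 3 (0.127) or aged bleo 5 (0.108). Ssr1, a subunit of the translocon-associated TRAP complex, was at 271 ± 7.33 CPM in aged sham against 321 ± 40.6 CPM in aged bleo, without overlap, and its log2 fold change was 0.24 (FDR 0.0865).

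None of the 4 COPII genes passed both thresholds in edgeR, DESeq2 or limma-trend, 3 had an unadjusted edgeR p under 0.05, and all 4 intervals lay within 1.5-fold. Sec23a, a subunit of the inner coat, was at 110 ± 6.81 CPM in aged sham against 132 ± 16.7 CPM in aged bleo, without overlap (log2 fold change 0.26, FDR 0.0624). Sec31a, of the outer coat, had a log2 fold change of 0.20 (FDR 0.0805). Sec24d, a cargo-binding subunit needed for procollagen export, was at 195 ± 13.1 and 211 ± 18.5 CPM (FDR 0.342). Mia3 encodes TANGO1, which loads procollagen into COPII carriers. Mia3 was at 141, 143, 151 and 145 CPM in aged sham 1 to 4 and at 123, 136, 128, 106 and 124 CPM in aged bleo 1 to 5. All aged bleo libraries lay below all aged sham libraries, the opposite order to Sec23a, and the log2 fold change of Mia3 was -0.23 (SE 0.08, FDR 0.0429).

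Both KDEL receptors were higher in aged bleo without overlap, and Kdelr3 rose by the call. Kdelr3 (ENSMUSG00000010830, chr15:79516408-79527739) was at 52.4, 52.7, 55.3 and 50.3 CPM in aged sham 1 to 4 and at 80.3, 66.4, 77.1, 105 and 105 CPM in aged bleo 1 to 5. The log2 fold change of Kdelr3 was 0.72 (1.65-fold, SE 0.14, FDR 0.00501), called under every alternative but the stricter limits. Kdelr2 was at 128 ± 1.42 CPM in aged sham against 181 ± 27.5 CPM in aged bleo, a log2 fold change of 0.50 (FDR 0.009) under the fold limit. Aged bleo 2 was the lowest bleo library for Kdelr2 and Kdelr3, as it was for Fkbp10, P4hb, Creb3l1, Sec61a1, Sec61b and Ssr1, and it was the highest bleo library for 10 of the 11 chaperones.

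Ratios of related genes within a library do not depend on how libraries are scaled to each other, and 6 were compared by a two-sided exact permutation test (126 ways of assigning the libraries to groups), with p-values adjusted over the 6. The smallest p this design allows is 0.00794. The first gene of each ratio is a member, chosen with earlier results of these data known. All of these first genes but Sec24d passed the FDR on their own, so the ratios are no independent support. Ratios of other gene pairs were not computed as a background. The log2 ratio of Creb3l1 to Creb3l2 was -1.22 ± 0.0616 in aged sham and -0.56 ± 0.247 in aged bleo, a difference of 0.65 (SE 0.11, exact p = 0.0159, adjusted p = 0.0238), and the groups did not overlap. The ratio of Sec61a1 to Sec61a2, its less expressed paralogue, was 3.34 ± 0.120 and 3.99 ± 0.228 (difference 0.65, adjusted exact p = 0.0238). The ratio of Sec23a to Sec23b lay between 0.78 and 0.99 in aged sham and between 1.17 and 1.91 in aged bleo (difference 0.64, adjusted exact p = 0.0238), and while Sec23a was higher by the FDR, Sec23b was lower by it, at 60.8 CPM in aged sham against 46.7 CPM in aged bleo (log2 fold change -0.38, FDR 0.0133). The ratio of Sec24d to the sum of Sec24a, Sec24b and Sec24c was -0.46 ± 0.0299 and -0.22 ± 0.0740 (difference 0.25, adjusted exact p = 0.0238). Sec24d itself did not pass the FDR, and Sec24b was lower by it (84.9 and 72.8 CPM, log2 fold change -0.22, FDR 0.0330). The ratios among the KDEL receptors differed less. Kdelr3 to Kdelr2 was -1.27 ± 0.0653 and -1.07 ± 0.106 (difference 0.21, adjusted exact p = 0.0286), Kdelr2 to Kdelr1 was -0.03 ± 0.0655 and 0.14 ± 0.114 (difference 0.17, adjusted exact p = 0.0317), and both overlapped between the groups. The last of these was at an adjusted exact p of 0.107 without aged sham 2, with a difference of 0.16.

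**Figure D4:**
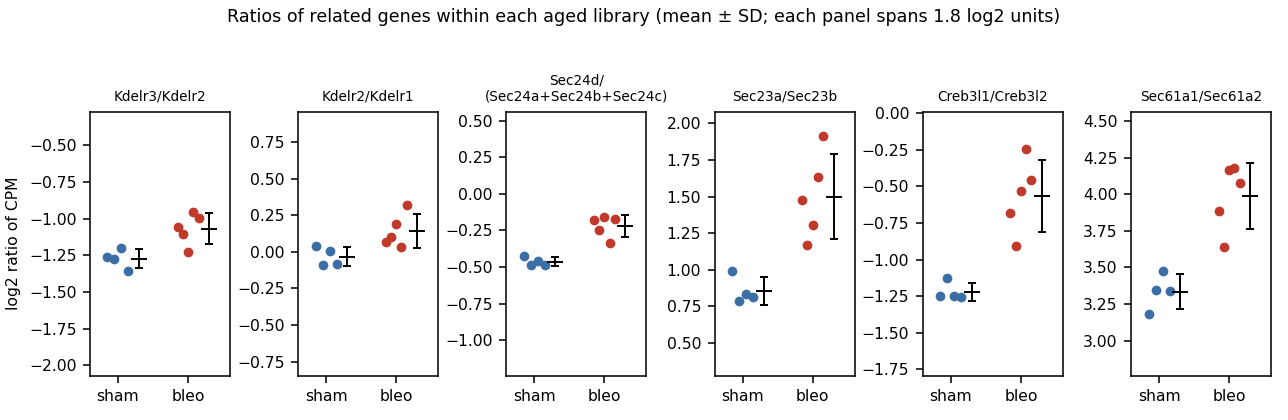
Log2 ratio of paralogous genes within each library, in aged sham (4 libraries) and aged bleo (5 libraries), with mean ± SD; every panel spans the same number of log2 units. The groups are apart for Creb3l1/Creb3l2, Sec61a1/Sec61a2, Sec23a/Sec23b and Sec24d against its paralogues, and overlap for the pair of KDEL receptor ratios.

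Read by the promoter elements shown above, the genes with an exact ERSE had fitted values near 0, though some of their intervals were wide. The ERSE was found in 39 of 32851 RefSeq promoters (0.119%) and in 8 of the 31 matched genes (Calr, Canx, Creld2, Dnajc3, Hsp90b1, Hspa5, Pdia6 and Syvn1), with 2 sites in Hsp90b1. It was first defined in the promoters of such chaperone genes, so its share among them is no independent result. The 8 genes had log2 fold changes from -0.28 to 0.23 with a median of 0.05, and none was called by edgeR, DESeq2 or limma-trend (1 at an unadjusted edgeR p under 0.05). The UPRE was found in 222 promoters (0.676%) and in 3 of the 31 genes, Kdelr3, Sec23a and Sec24d, with log2 fold changes from 0.11 to 0.72 and 1 call, Kdelr3. The CARE was found in 1299 promoters (3.95%) and in 2 of the 31 genes (6.45%), Herpud1 and Trib3. ERSE-II was found in 12 promoters (0.0365%) and in Dnajb11 and Herpud1. Herpud1 and Trib3 are also the 2 genes called lower. That is too few genes to relate the CARE to the calls, and the call of Herpud1 depended on single libraries. Both strands were searched, ERSE and ERSE-II share the letters CCACG, and the UPRE holds their reverse complement. The ERSE of Hspa5 lies within 65 bases of the RefSeq start. The deposited gene entry (chr2:34771970-34777547) begins upstream of that start, so the element lies inside the entry. The 250 bases before the RefSeq start (chr2:34771840-34772089, + strand, GRCm38.p6) are printed with the exact match in capitals.
Hspa5 promoter: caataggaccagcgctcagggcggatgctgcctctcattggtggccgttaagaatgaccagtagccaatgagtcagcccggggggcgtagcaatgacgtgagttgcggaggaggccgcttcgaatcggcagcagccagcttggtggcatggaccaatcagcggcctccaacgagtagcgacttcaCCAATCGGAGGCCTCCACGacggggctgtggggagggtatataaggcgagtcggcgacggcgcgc
A match is a match of letters, and binding was not measured.

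Among 173 further genes of the pathway in 8 lists, of which 171 were tested, 15 were called higher and 6 lower, or 8.77% and 3.51% against 12.3% and 11.5% of all tested genes. At an FDR under 0.10 with no fold limit, 73 of the 171 (42.7%) were higher and 18 (10.5%) lower, against 23.4% and 21.4% of all tested genes, and the median log2 fold change was 0.16. Most of the genes that passed the FDR were thus under the fold limit. Of the 15 COPI and retrieval genes, none was called by edgeR, DESeq2 or limma-trend, 10 had an unadjusted edgeR p under 0.05 and 9 were higher by the FDR alone, with a list median of 0.20. Of 33 other chaperones and folding enzymes 3 were called higher, with Serpinh1 (HSP47, the collagen chaperone) at 965 ± 99.1 and 1804 ± 236 CPM (log2 fold change 0.90, FDR 0.00129) and Pdia5 at 13.4 and 36.7 CPM (1.46, FDR 0.00129) as the largest. Of 21 signal recognition and translocon partners 2 were called higher, Spcs1 of the signal peptidase (0.68) and Ssr2 of the TRAP complex (0.67), and of 12 oligosaccharyltransferase genes 1 was, Dad1 (0.61). Of 29 other COPII and cargo receptor genes 2 were called higher, Tmed9 (0.66) and the cargo receptor Lman1 (0.59), and 1 lower, Sec31b (-0.91). No gene of the 21 other ERAD genes or of the 14 other sensors and regulators was called by edgeR, DESeq2 or limma-trend. By the FDR alone, 6 and 5 of them were higher and 1 of each lower, and 7 and 6 had an unadjusted edgeR p under 0.05.

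Of the 26 PERK and ATF4 branch targets, 7 were called higher (26.9%) and 5 lower (19.2%), against 12.3% and 11.5% of all tested genes. Atf3, a stress-induced repressor that also belongs to the immediate early genes, was at 893 ± 176 CPM in aged sham against 198 ± 92.0 CPM in aged bleo (log2 fold change -2.17, FDR 0.00177). Ppp1r15a, which encodes the phosphatase subunit GADD34 that ends the PERK signal, was at 318 ± 36.6 and 142 ± 50.2 CPM (-1.17, FDR 0.00671). These fell while other genes of the list rose. Ddit4, an inhibitor of mTORC1, was at 14.2 ± 5.20 and 64.2 ± 28.6 CPM (2.17, FDR 0.00271), and Mthfd2, a mitochondrial folate enzyme, between 3.62 and 5.44 CPM in aged sham and between 7.52 and 24.7 CPM in aged bleo (3.48-fold, FDR 0.00555). Also called higher in this list were Asns, Nupr1, Eif4ebp1, Slc7a5 and Psat1, and also lower were Atf5, Vldlr and Stc2. These 8 are named to complete the calls, after their values were seen. The members of the branch, Atf4, Ddit3 and Trib3, had negative fold changes.

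The libraries held 49921946 to 62370512 counts in aged sham and 53833507 to 68260600 in aged bleo, so that 3 counts, the most that a count of 0 allows by counting error, equal 0.0409 to 0.0605 CPM. Counts of libraries within a group differed by a chi-square of at least 30.9 per degree of freedom, where sampling noise gives 1, so none was a repeat of another. The fibroblast markers summed to 24845 to 30577 CPM in aged sham and 54995 to 72429 CPM in aged bleo, with 4 of 8 genes called higher and 2 lower. The higher genes were Pdgfrb and the collagen genes Col1a1 (means of 4154 and 20853 CPM), Col1a2 and Col3a1. The lower genes were Dcn (8122 and 2795 CPM) and Tcf21 (106 and 49.6 CPM), and Pdgfra and Lum were not called. Markers of other cell types were present, among them types that the sort selects against. Pan-leukocyte markers summed to 89.5 to 327 CPM in aged sham and 91.0 to 509 CPM in aged bleo (1 of 5 called higher), macrophage markers to 147 to 258 and 454 to 1394 CPM (4 of 7 called higher), neutrophil markers to 170 to 1018 and 84.9 to 906 CPM, epithelial markers to 10.3 to 84.5 and 17.2 to 54.3 CPM (1 of 8 called higher), mesothelial markers to 23.9 to 71.2 and 27.3 to 99.7 CPM, and T and NK cell markers to 3.97 to 8.65 and 2.08 to 27.8 CPM (1 of 5 tested called higher). Endothelial markers summed to 159 to 193 CPM in aged sham, against 22.7 to 65.4 CPM in aged bleo, but this sum was mostly Tek (161 and 28.9 CPM, called lower). Kdr was called higher (3.25 and 4.97 CPM), and Pecam1, Cdh5 and Cldn5 were not called. Smooth muscle and pericyte markers summed to 2544 to 5174 CPM in aged sham, against 1765 to 2832 CPM in aged bleo, with Myh11 (log2 fold change -1.16) and Cnn1 (-0.96) called lower of 6 genes. Cell cycle markers summed to 9.06 to 55.3 CPM in aged sham and 35.5 to 280 CPM in aged bleo, with 7 of 7 called higher. No gene of these lists was at 0 in all libraries. The part of these cells in the values of the ER genes was not tested. Without aged sham 4 and aged bleo 4, the libraries with the most pan-leukocyte markers in their groups, 3 members were called higher and 3 lower, where 10.5% and 11% of the genes tested were. Sec61b was then not called (0.50) and Atf4 was (-0.59).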

How the data were processed

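The sorted Col1a1-GFP+ cells gave 4 RNA-Seq libraries for aged sham and 5 for aged bleo, and groups were read from the sample labels. The authors deposited whole-number read counts per gene, not normalized, and FPKM values, which the authors scaled by gene length and by library totals that exceed the summed counts 2.27 to 2.42 times. The submitters' processing notes name STAR 2.5.2b, Subread, featureCounts and mm10; the strand setting is not given in the sources used here, and the TruSeq RNA v2 kit does not mark strand. The protocol counts 4 and 5 lungs, 1 library each. Column names end in a number of unstated meaning, which the sham libraries share with aged bleo 4 alone.

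The members, gene lists and motifs were chosen with earlier results of these data known. All 38 members are named; of other pathway lists, up to 2 called genes per direction with the largest fitted change, no overlap and a mean of at least 1 CPM, plus the partners of the ratios. The test was the quasi-likelihood test of edgeR 4.0.16 in R 4.3.3 with TMM factors and without covariates, for genes averaging 25 counts or more, and p-values were adjusted over all of these by Benjamini-Hochberg. Ratios used CPM plus 0.1. Intervals are 95% intervals of the moderated fit. The fits and the permutation test were tested on simulated data. Alternatives were DESeq2 1.42.0, limma 3.58.1 on log2 CPM with a prior count of 2 and on log2 FPKM with 0.1 or 1 added, RLE factors, scaling by library size, no filter, a filter of 10 counts in every library, stricter thresholds, each library left out, a replicate block and, chosen after seeing the data, leaving out 2 pairs of libraries. Exon overlaps came from GENCODE M21, where 28 of the 38 members have the deposited positions, and 13 share exonic bases with another gene. RefSeq promoters were given for 31 members.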

Additional observations from a re-analysis of the deposited data

Results flagged for a closer look

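In 5 of 88 sets of values (1 gene or ratio in 1 group) a single library stood apart from the others of its group by Dixon's criterion, and chance alone gives about 1 in 20. Dnajb9 was at 79.0 CPM in aged sham 1, where the nearest sham library was at 101.6 CPM. Ssr1 was at 260 CPM in the same library, with the nearest at 275 CPM. Atf6 was at 101.6 CPM in aged sham 3 and at 98.8 CPM in the nearest library, a small gap in a very narrow group. The log2 ratio of Creb3l1 to Creb3l2 was -1.13 in aged sham 2 and -1.25 in the nearest sham library, both below all aged bleo libraries. Ern1 was at 84.1 CPM in aged bleo 3 and at 75.5 CPM in the nearest bleo library.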

How the results depend on the processing

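Of the 38 members, 23 kept their direction and their side of the thresholds under all 21 alternatives and 15 did not. The number called higher, 4, was 1 under the stricter thresholds (7.25% of all tested genes were) and 3 to 6 with 1 library left out. The number called lower, 2, was 1 on log2(FPKM + 1) (4.89% of all tested genes), 1 under the stricter thresholds (5.53%), 1 with replicate numbers as a block (10.2%), 4 without aged sham 3 and aged bleo 2, and 1 to 5 with 1 library left out. The sample labels do not say that replicate numbers pair the samples. Libraries with the same number had correlations of deviations of 0.09, 0.06, -0.13 and 0.33. Other pairs of libraries were not compared, so these values cannot show whether the samples are paired. The replicate block, which drops aged bleo 5, is given only here. Sec61b (0.61, FDR 0.115) and Herpud1 (-0.56) were not called in it. The ratio differences under the block were 0.19 for Kdelr3/Kdelr2, 0.13 for Kdelr2/Kdelr1 and 0.23 for Sec24d against its paralogues. They were 0.54 for Sec23a/Sec23b, 0.63 for Creb3l1/Creb3l2 and 0.63 for Sec61a1/Sec61a2. With 4 pairs the exact p cannot go below 0.125. With 1 library left out, the Kdelr2/Kdelr1 difference ran from 0.13 to 0.20. The pathway lists had 15 genes called higher, against 6 under the stricter thresholds, 8 without aged sham 4 and aged bleo 4 and 10 to 17 with 1 library left out, and 6 called lower, against 3 on log2(FPKM + 1), 2 under the stricter thresholds and 5 to 9 with 1 library left out. Members near 0 changed sign: Creb3l2 (0.0247 on log2(FPKM + 0.1), 0.0231 on log2(FPKM + 1), 0.00126 by library size only, 0.0140 without filter, 0.00150 with at least 10 counts in every library, 0.0261 without aged sham 4 and aged bleo 4, -0.0499 to 0.0509 with 1 library left out), Edem1 (-0.00155 in DESeq2, -0.00159 with RLE factors, -0.0715 without aged sham 4 and aged bleo 4, -0.0379 to 0.0640 with 1 library left out), Sel1l (0.0197 without those libraries, -0.146 to 0.0140) and Hyou1 (-0.219 to 0.0897). The cause was not tested.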
